A study of Mus musculus with 32 samples.

Results

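The 8 genes described here, *Apc*, *Ctnnb1*, *Trp53*, *Braf*, *Pik3ca*, *Myc*, *Cdkn2a* and *Fbxw7*, are recurrent drivers of colorectal cancer (CRC). They were chosen by name, as known drivers, at a time when earlier results of these data were known, and they are 8 of the 31982 gene names on the arrays, with 12 of the 55681 mouse probes. The mRNA was measured in 8 groups of 4 samples, which the methods call biological replicates. Sinusoidal endothelial cells, Ito cells (the hepatic stellate cells, which store vitamin A) and Kupffer cells (the macrophages resident in the liver) came from young adult male Balb/c mice. Control cells (EC, IC and KC) came from mice given PBS, and cells of the tumor microenvironment (TME; ET, IT and KT) from mice with C26 colon carcinoma cells inoculated into the spleen. C26 is a transplantable mouse colon carcinoma line syngeneic with Balb/c. The TP samples are labelled as CRC primary cells and the TM samples as tumor liver metastasis cells. The paper describes both as collected from the induced CRC and names no other tumor line, but it does not say how TP was taken. Both tumor groups were therefore read as stemming from 1 cell line growing in mice, and no normal colon was measured.

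In colorectal cancer, loss of APC frees β-catenin, the product of *Ctnnb1*, from degradation, and β-catenin then switches on Wnt target genes, of which *Myc* is the best known. BRAF signals through the MEK and ERK kinases, and PIK3CA is the catalytic subunit of the PI3-kinase that activates AKT. p53, ARF and INK4A restrain the cell cycle, the latter both being products of *Cdkn2a*, and FBXW7 is the subunit of a ubiquitin ligase that marks MYC, cyclin E and other growth proteins for destruction. Most of these genes are altered in human tumors by mutation, which an expression array does not read.

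Every array carried a Cy3 and a Cy5 sample. Control and TM samples were labelled with Cy3 and TME and TP samples with Cy5 on all 16 arrays, so that dye and group cannot be told apart in TME against control or in TP against TM. Slide 1 held the endothelial and Ito arrays and slide 2 those of the Kupffer cells and tumors. The 8 tumor channels could therefore be set against the 8 Kupffer channels with both dyes on both sides and on 1 slide, and this was the main comparison. Against endothelial and Ito cells, slide and tissue cannot be told apart. Levels are log2 values of the background-corrected, quantile-normalized signal of a probe and have no absolute unit, so levels of different probes are not compared. Precision is limited by the 4 arrays of each group. In bulk samples of this kind, fewer cells of a type and less RNA per cell cannot be told apart.

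Several libraries stood apart. On array 4 of the Ito and of the Kupffer cells the TME minus control differences ran against the mean of the other arrays of that cell type (r = -0.66 and -0.60 over 17050 probes well above background in all channels), whereas on the other liver arrays r was 0.19 to 0.78. The summed signal of 8 neutrophil markers also ran against the labels there. It was 15094 in control Ito replicate 4 against 1289 to 1450 in the other controls, and 1667 in TME Ito replicate 4 against 8587 to 19995 in the other TME samples. In Kupffer cells it was 13688 in control replicate 4 against 3069 to 4032, and 3347 in TME replicate 4 against 11029 to 11880. TME Ito replicate 2 stood apart in another way, with a summed signal of 10 colon epithelial markers of 153101 against 4713 to 5247 in the other TME Ito samples, and of the macrophage markers of 62933 against 149646 to 426888. Among the TM samples, replicates 2 and 3 lay together on one side of replicates 1 and 4 for all 8 member genes, and for 72.6% of the 17050 bright probes. The summed signal of 9 cycling genes was 92660 and 65979 in TM replicates 1 and 4 but 8883 and 12377 in replicates 2 and 3, and their part in the results was not tested. Member results that changed when these libraries were left out are given both ways, a choice made after seeing the data. TME endothelial replicate 2 and control Kupffer replicate 3 also stood apart, and were left out only with the same-numbered samples of all groups. The former had a summed epithelial signal of 12064 against 2225 to 2368 in the other ET samples. The latter had a macrophage signal of 136991 against 272020 to 645687 in the other KC samples. It held the lowest KC value for *Braf* and *Ctnnb1* and the highest for *Trp53*. Of the labels, 9 of 9 macrophage and 9 of 9 endothelial markers were well above background on every array of every liver cell group, so that the liver preparations shared each other's markers. The 10 Ito markers did not set the Ito samples apart, which are named by their label. Their mean log2 level was 7.54 in IC, 7.91 in IT, 8.85 in EC, 8.25 in ET, 7.42 in KC and 7.43 in KT. In endothelial against Ito cells 2 of them were called higher and 1 lower. The macrophage markers had means of 13.59 in IC and 13.44 in IT, beside 14.19 in KC and 11.88 in EC. In the tumors 2 of 9 macrophage markers reached that level on all 4 arrays of TM and of TP, and *Clec4f*, a Kupffer cell marker, on none. Of the 10 colon epithelial markers, 3 were well above background on all 4 arrays of TM, 3 of TP and 3 of EC. The keratin genes *Krt20* and *Krt18* were so in 8 of 8 tumor channels. *Krt8*, *Krt19* and *Cldn4* were so in some, and *Epcam*, *Cdh1*, *Vil1*, *Cdx1* and *Cdx2* in 0 of 8. Their summed signal was 3498 to 9509 in TM and 1558 to 8919 in TP. It was 6508 to 6837 in EC, 5049 to 6472 in IC and 269 to 712 in KC, so EC and IC were not below the tumors.

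Probes of 60 bases read these genes, and the stretches on which the results turn are shown here as the array files give them, in mm9 coordinates. The *Cdkn2a* probe lies at chr4:88920405-88920464 on the minus strand, and its first 30 bases follow. It is listed with 2 RefSeq transcripts, so it does not tell INK4A from ARF.
Cdkn2a: ggcatgagaaactgagcgaaggcggccgcg
The brighter *Fbxw7* probe (chr3:84781446-84781505, plus strand, 3 transcripts) starts at the end of the coding sequence, with the stop codon in capitals. The second probe (chr3:84707897-84707956, plus strand) lies further 5′ in coding sequence and is listed with 2 transcripts, so that the pair samples different stretches of the mRNA.
Fbxw7, brighter probe: gatgtggacatgaaaTGA
Fbxw7, second probe: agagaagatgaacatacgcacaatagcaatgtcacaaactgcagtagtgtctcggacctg
The *Myc* probe (chr15:61821417-61821476, plus strand, 4 transcripts) covers the last coding bases, with the stop codon in capitals.
Myc: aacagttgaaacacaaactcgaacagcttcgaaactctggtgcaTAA
The *Trp53* probe (chr11:69404204-69404263, plus strand, 2 transcripts) reads an open frame, and the *Pik3ca* probe (chr3:32360630-32360689, plus strand, 1 transcript) begins in the kinase domain, with the codons of its DFG motif in capitals.
Trp53: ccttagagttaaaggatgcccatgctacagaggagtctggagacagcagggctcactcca
Pik3ca: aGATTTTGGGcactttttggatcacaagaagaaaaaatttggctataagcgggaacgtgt

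For *Apc*, *Cdkn2a*, *Fbxw7* and *Braf*, 2 probes each were on the arrays, and the brighter of the pair is the one described unless stated. The second *Apc* and the second *Cdkn2a* probe were not well above background in any of the 32 channels. The brighter probes were well above background in all 24 liver channels, except that of *Apc* in TME Ito replicate 2. In the tumors all were well above background in 8 of 8 channels except that of *Cdkn2a*. The *Apc* probe has coordinates on chromosome 18 that span more than its own length (34432157 to 34436232). The *Ctnnb1* probe lies at chr9:120869274-120869333 and the *Braf* probes at chr6:39553758-39553817 and chr6:39557807-39557866.

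**Figure D1:**
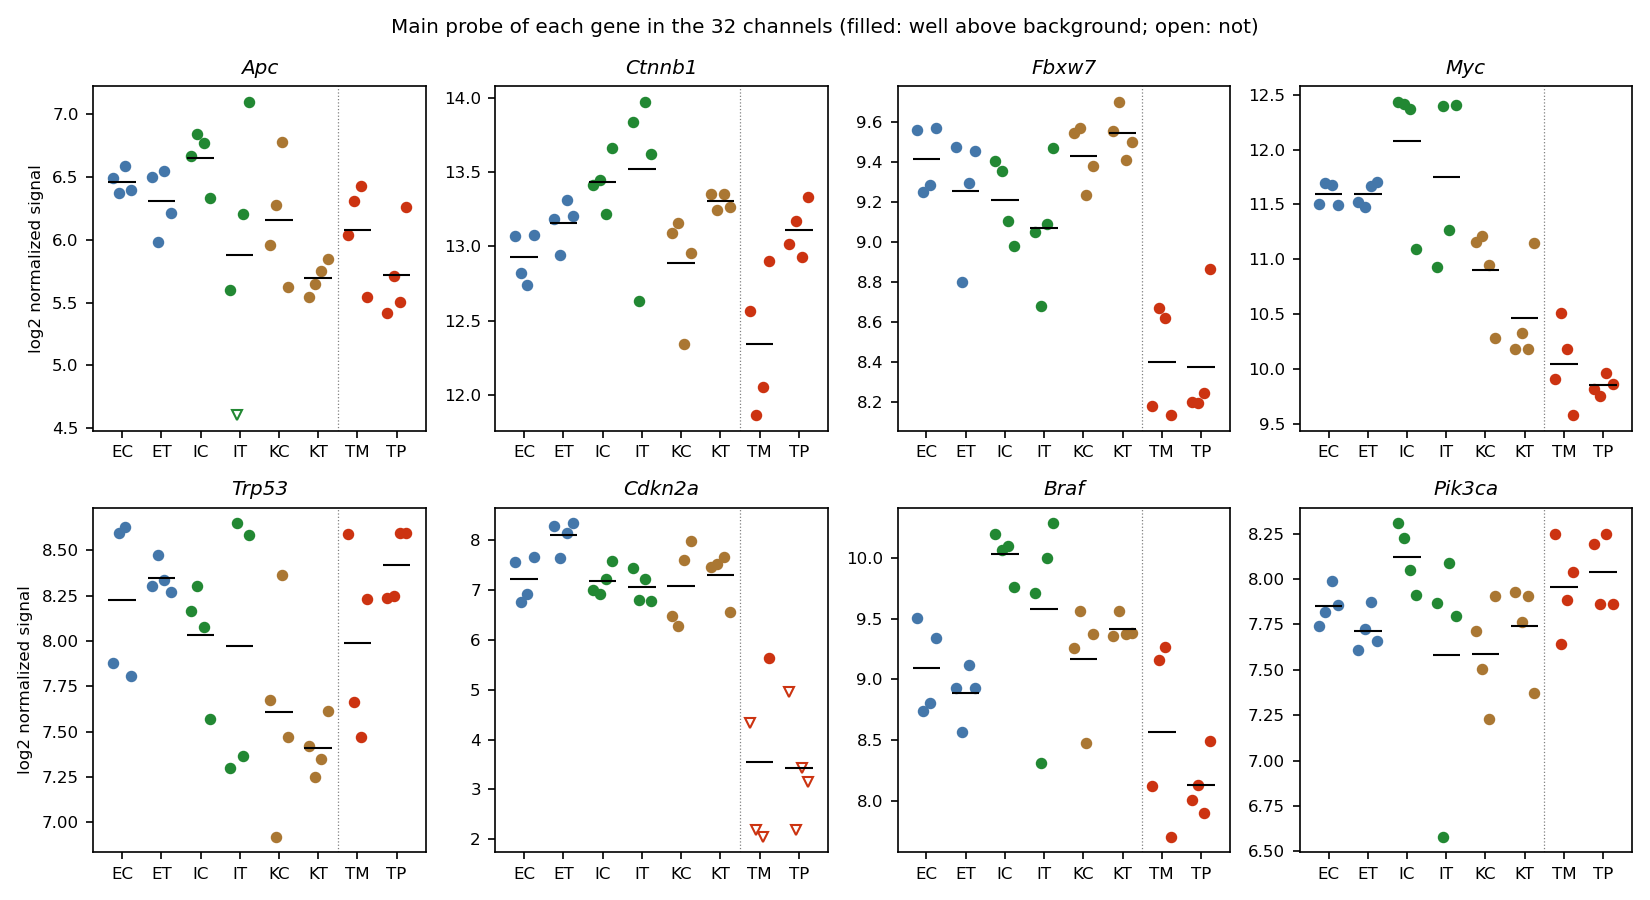
Log2 level of the brighter probe of each of the 8 genes in the 32 channels, by group, with a point for each sample and a bar for the group mean. Open triangles are channels not well above background. The 8 tumor channels of Cdkn2a (2.05 to 5.64) lie below all 24 liver channels (6.28 to 8.34), and TM replicates 2 and 3 lie together, apart from 1 and 4, for all 8 genes.

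Tumors and Kupffer cells differed in 5 of the 8 genes. *Cdkn2a*, *Fbxw7*, *Braf* and *Myc* were lower in the tumors and *Trp53* was higher, whereas *Ctnnb1*, *Pik3ca* and *Apc* did not pass the test. *Ctnnb1* and *Pik3ca* lay near the threshold and passed it when TME Ito replicate 2 was left out of the fit, in which all groups share 1 estimate of the spread. In numbers of probes, 1 of 12 was higher and 5 were lower at an adjusted p under 0.05 (limma, Benjamini-Hochberg adjustment over all probes). Of all probes on the array, 50.7% were called in this comparison, 29.9% higher and 20.7% lower, and among the 17050 bright probes 76.2%, so the share of the members called was near that of the array. The median difference of the 12 probes was -0.51 on the log2 scale and that of all probes 0.10. The same 8 tumor channels enter every comparison with liver cells below.

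*Cdkn2a*, whose products INK4A and ARF hold back the cyclin D kinases and protect p53, had the largest measured difference from Kupffer cells, although 7 of its 8 tumor channels were not well above background. In the metastases its log2 levels were 4.32, 2.20, 2.05 and 5.64 in replicates 1 to 4, and only replicate 4 was well above background. In the primary tumors the levels were 4.94, 2.18, 3.42 and 3.14, all not well above background. No tumor channel reached the lowest liver channel. Control Kupffer cells had 6.47, 6.28, 7.60 and 7.98 and TME Kupffer cells 7.46, 7.53, 7.66 and 6.55. Control and TME endothelial cells ranged from 6.76 to 7.66 and from 7.65 to 8.34, and control and TME Ito cells from 6.91 to 7.58 and from 6.77 to 7.44. The measured difference between tumors and Kupffer cells was -3.70 (SE 0.41, 95% interval -4.55 to -2.86, adjusted p = 1.13e-08 by limma). Because no TP channel was well above background, TP gives only a bound: after loess and Aquantile normalization the level in TME Kupffer cells was at least 2.54-fold higher than in TP, in TME Ito cells at least 2.25-fold and in TME endothelial cells at least 3.95-fold. By the same rule control Kupffer cells were at least 2.44-fold, control endothelial cells 2.45-fold and control Ito cells 2.42-fold above TM, where 1 of 4 channels was well above background. That scale came from normexp-corrected signals on dyes that were not swapped, and on it the measured difference between tumors and Kupffer cells was -1.47. The measured difference between TM and control Kupffer cells was -3.53 (SE 0.58, adjusted p = 1.22e-05) and fell to -2.10 (adjusted p = 0.00283) without TM replicates 2 and 3. Groups of 8 that did not overlap were seen for 2 of the 12 probes, *Cdkn2a* and the brighter *Fbxw7* probe, and for 26.3% of all probes. *Cdkn2a* was also the 1 probe of the 12 whose tumor channels did not overlap the 24 liver channels, against 15% of all probes.

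*Fbxw7* was lower in the tumors by both probes. The brighter probe stood at 8.18, 8.67, 8.62 and 8.13 in TM and at 8.20, 8.19, 8.24 and 8.87 in TP. Its levels were 9.55, 9.57, 9.23 and 9.38 in control and 9.56, 9.70, 9.41 and 9.50 in TME Kupffer cells, so that the highest tumor channel lay under the lowest Kupffer channel. Endothelial cells ranged from 8.80 to 9.57 and Ito cells from 8.68 to 9.47, so that only TP replicate 4 reached into their ranges. The difference from Kupffer cells was -1.10 (SE 0.13, 95% interval -1.36 to -0.84, adjusted p = 2.53e-08), a 2.15-fold lower level. The second probe, which lies further 5′ and in coding sequence, gave -1.02 (SE 0.16, adjusted p = 4.26e-06), with tumors at 7.33 to 8.07 and liver cells at 7.76 to 9.35. An exact permutation test of 8 against 8 channels gave p = 0.0001554 for the brighter probe and for *Cdkn2a*, the smallest that 12870 splits allow, and p = 0.000311 for the second *Fbxw7* probe.

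*Braf*, the RAF kinase upstream of MEK and ERK, was lower in the tumors, and more evenly so in TP. TP had 8.01, 8.13, 7.90 and 8.49, control Kupffer cells 9.26, 9.56, 8.47 and 9.37, and TME Kupffer cells 9.36, 9.57, 9.37 and 9.38. All TP channels lay below the TME Kupffer channels, and 1 of them, at 8.49, above control Kupffer replicate 3 at 8.47. The TM replicates were split, with 8.12 and 7.70 in replicates 1 and 4 and 9.16 and 9.27 in replicates 2 and 3. In both tumor groups together *Braf* was lower than in Kupffer cells by -0.95 (SE 0.24, adjusted p = 0.00145, exact permutation p = 0.00202). Within the Cy5 dye, TP was lower than TME Kupffer cells by -1.29 (SE 0.34, adjusted p = 0.0025). Within Cy3, TM was at -0.60 (adjusted p = 0.175), and at -1.26 (adjusted p = 0.00713) without TM replicates 2 and 3. The second *Braf* probe was dim, with 30 of 32 channels well above background, and gave -0.65 (SE 0.28, adjusted p = 0.0555) for both tumor groups and -1.15 (adjusted p = 0.0194) for TP, a call that was lost without replicate 1 or 3 of each group.

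*Myc*, the transcription factor of growth and ribosome synthesis that Wnt signalling induces in the colon, was lower in the tumors than in every liver cell type. TM had log2 levels of 9.91, 10.50, 10.18 and 9.58 and TP of 9.82, 9.76, 9.97 and 9.86. Control Kupffer cells had 11.15, 11.21, 10.95 and 10.28 and TME Kupffer cells 10.18, 10.32, 10.18 and 11.15. The tumor channels therefore overlapped the Kupffer channels at their lower end only. The difference from Kupffer cells was -0.73 (SE 0.22, 95% interval -1.18 to -0.28, adjusted p = 0.00627, exact permutation p = 0.00264), a 1.66-fold lower level. Endothelial cells were tight, from 11.48 to 11.70, and exceeded every tumor channel. Ito cells ranged from 10.93 to 12.44 and did so too. The tumors were lower than endothelial cells by -1.65 (SE 0.22, adjusted p = 4.14e-07) and lower than Ito cells by -1.97 (SE 0.22, adjusted p = 1.46e-08), in comparisons where the slide cannot be told apart from the tissue.

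*Trp53*, which encodes p53, was the only 1 of the 8 genes that was called higher in the tumors with all samples in the fit. TP had 8.24, 8.25, 8.59 and 8.59, above all TME Kupffer channels at 7.42, 7.25, 7.35 and 7.61. TM had 8.59, 7.66, 7.47 and 8.23, with only replicate 1 above all control Kupffer channels, which had 7.67, 6.92, 8.37 and 7.47. The difference between tumors and Kupffer cells was 0.69 (SE 0.22, 95% interval 0.25 to 1.14, adjusted p = 0.00816, exact permutation p = 0.00886), a 1.62-fold higher level. TP against TME Kupffer cells gave 1.01 (SE 0.30, adjusted p = 0.00786) and TM against control Kupffer cells 0.38 (SE 0.30, adjusted p = 0.375). Ito cells at 7.30 to 8.65 covered the tumor range. Endothelial cells at 7.81 to 8.63 did not, since the TM channels at 7.66 and 7.47 lay below all of them. The differences from endothelial and Ito cells were -0.08 (adjusted p = 0.782) and 0.20 (adjusted p = 0.471). The call against Kupffer cells was lost without replicate 1 of each group (0.64, adjusted p = 0.0506) and without replicate 4 (0.64, adjusted p = 0.0513).

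*Ctnnb1*, *Pik3ca* and *Apc* did not pass the test against Kupffer cells. *Ctnnb1* encodes β-catenin, and its probe was bright in every channel, at 12.56, 11.86, 12.05 and 12.90 in TM and 13.02, 13.17, 12.93 and 13.33 in TP. Kupffer cells ranged from 12.34 to 13.36 and covered TP and the upper TM channels, and the difference was -0.37 (SE 0.16, 95% interval -0.70 to -0.03, adjusted p = 0.0629). *Pik3ca* stood at 8.25, 7.64, 7.89 and 8.04 in TM, at 8.19, 7.86, 8.25 and 7.86 in TP and between 7.23 and 7.93 in Kupffer cells. Its difference was 0.33 (SE 0.16, 95% interval 0.01 to 0.65, adjusted p = 0.0786), and 4 of the 8 tumor channels lay above all Kupffer channels. *Apc*, the scaffold of the β-catenin destruction complex, had 6.04, 6.31, 6.43 and 5.55 in TM and 5.41, 5.71, 5.50 and 6.26 in TP, with Kupffer cells between 5.54 and 6.78. Its difference of -0.03 (SE 0.23, adjusted p = 0.942) has a 95% interval of -0.50 to 0.45. The intervals of *Ctnnb1* and *Pik3ca* exclude 0 before adjustment for the number of probes.

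**Figure D2:**
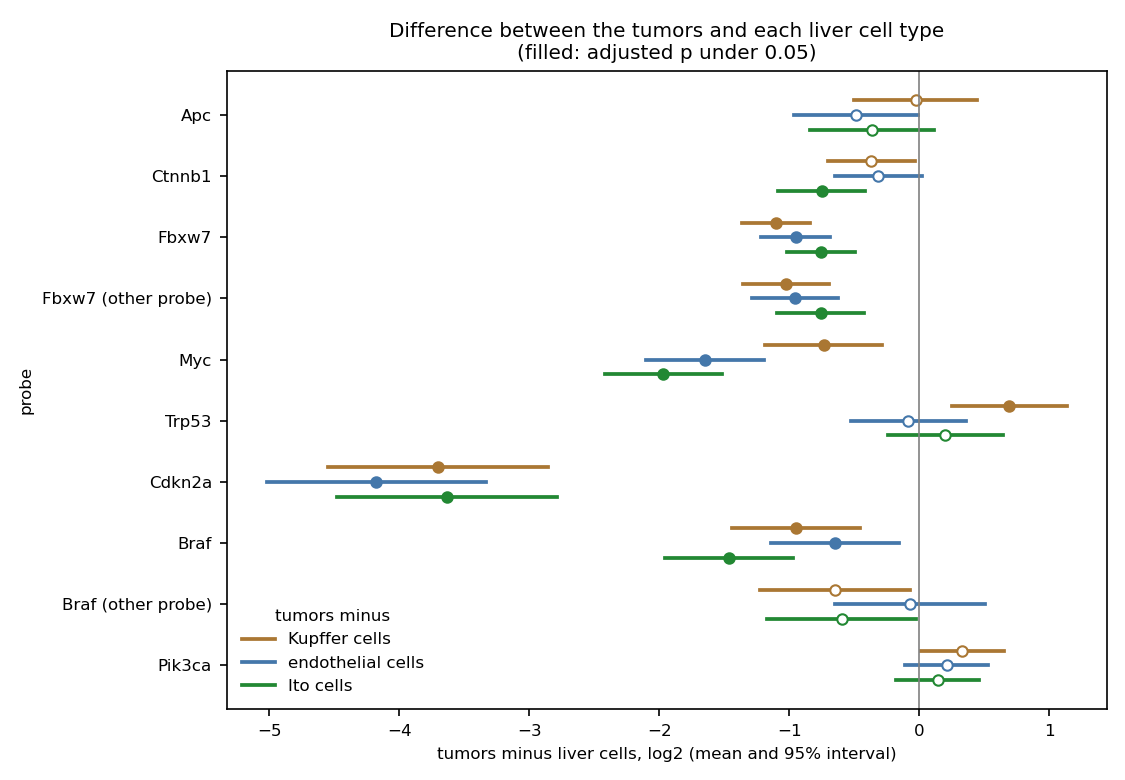
Log2 difference between the 8 tumor and the 8 channels of each liver cell type for the 10 probes that were well above background in some channel, as points with 95% intervals, filled where the adjusted p was under 0.05. Cdkn2a lies near -4 against all 3 cell types, Myc moves further from 0 against endothelial (-1.65) and Ito cells (-1.97) than against Kupffer cells (-0.73), and Trp53 is called against Kupffer cells (0.69) only.

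Against endothelial cells 0 of the 12 probes were higher and 5 lower, when 46.7% of all probes were called (27.8% higher, 18.9% lower). Against Ito cells 0 were higher and 6 lower, when 48.7% were called (28.5% higher, 20.2% lower). *Cdkn2a* gave -4.17 (adjusted p = 1.91e-09) and -3.63 (adjusted p = 1.96e-08), and the brighter *Fbxw7* probe -0.95 (adjusted p = 4.88e-07) and -0.75 (adjusted p = 1.4e-05). *Braf* was lower than in Ito cells by -1.46 (SE 0.24, adjusted p = 8.47e-06) and than in endothelial cells by -0.64 (SE 0.24, adjusted p = 0.0283). The latter call was lost without replicate 1 of each group (adjusted p = 0.255) and without replicate 4 (adjusted p = 0.137). *Ctnnb1* was lower than in Ito cells (-0.75, SE 0.16, adjusted p = 0.000334). Within 1 dye, 0 probes were higher and 4 lower in TM than in control Kupffer cells, when 39.1% of all probes were called (22.6% higher, 16.6% lower). In TP against TME Kupffer cells 1 was higher and 5 lower, when 43.3% were called (25.1% higher, 18.2% lower). *Myc* was among the calls in TM (-0.86, SE 0.31, adjusted p = 0.0289) and not in TP (-0.61, SE 0.31, adjusted p = 0.121), although the TP and TME Kupffer channels did not overlap, and whether the 2 differences differ was not tested. The TM call for *Myc* was lost in the deposited values (adjusted p = 0.0525), with 75th percentile scaling (0.0603), with only the groups compared (0.0525), by the methods' t-test (0.0752) and without replicates 1, 2 or 3 of each group, and it held without TM replicates 2 and 3 (-1.16, adjusted p = 0.0173).

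Without TM replicates 2 and 3, 2 probes were higher and 6 lower than in Kupffer cells, among 49.1% of all probes called. *Trp53* then stood at 0.91 (adjusted p = 0.0018), *Pik3ca* at 0.43 (adjusted p = 0.0445) and *Braf* at -1.27 (adjusted p = 5e-05) with -1.09 (adjusted p = 0.000731) for its second probe. *Ctnnb1* moved to -0.17 (adjusted p = 0.431). In TM against control Kupffer cells 6 probes were then lower instead of 4, both *Braf* probes being the additions, among 36% of all probes called. Without TME Ito replicate 2 the tumor and Kupffer values stay as they are and only the spread shared by the groups changes. Then 2 probes were higher and 7 lower than in Kupffer cells, among 51.8% of all probes called, the additions being *Ctnnb1* (adjusted p = 0.0197), *Pik3ca* (adjusted p = 0.0108) and the second *Braf* probe (adjusted p = 0.0161). Without array 4 of the Ito and Kupffer cells the counts were 1 higher and 5 lower, among 48.6%. The macrophage gene *Emr1* had log2 levels of 8.73, 3.04, 2.19 and 8.66 in TM replicates 1 to 4 and of 7.99, 7.13, 8.37 and 6.08 in TP. In TM replicates 1 to 4, 5, 3, 3 and 6 of 9 macrophage markers were well above background, with summed signals of 4177, 3329, 2234 and 7375, and their part in the TM values was not tested.

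The liver cell types were also set side by side, Kupffer cells as a description only, since their slide was not that of the others. *Myc* stood lower in Kupffer cells, whose 8 channels (10.18 to 11.21) did not overlap the 8 endothelial channels (11.48 to 11.70). In mean ± SD over 8 channels, *Myc* was ordered Ito (11.91 ± 0.68), endothelial (11.59 ± 0.10), Kupffer (10.68 ± 0.47) and tumor (9.95 ± 0.28). *Braf* was ordered Ito (9.81 ± 0.64), Kupffer (9.29 ± 0.35), endothelial (8.99 ± 0.31) and tumor (8.35 ± 0.58). *Trp53* was ordered endothelial (median 8.32), tumor (8.24), Ito (8.12) and Kupffer (7.45). The 8 endothelial and 8 Ito channels share a slide and balance the dyes, and between them only *Braf* was called (-0.82, SE 0.24, adjusted p = 0.0162), lower in endothelial cells, when 18.3% of all probes were called and 7.42% were lower. That call was lost without replicates 1, 3 or 4, and without array 4 of the Ito and Kupffer cells. Without TME Ito replicate 2, 3 probes were lower in endothelial cells, among 21.7% of all probes called. These were *Braf* (-1.03, adjusted p = 0.000413), its second probe (-0.79, adjusted p = 0.0146) and *Ctnnb1* (-0.58, adjusted p = 0.00218). With all samples, endothelial and Ito cells had no called difference in *Myc* (-0.32, 95% interval -0.77 to 0.13) or *Trp53* (0.28, 95% interval -0.16 to 0.73), neighbours or near neighbours in their orders.

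**Figure D3:**
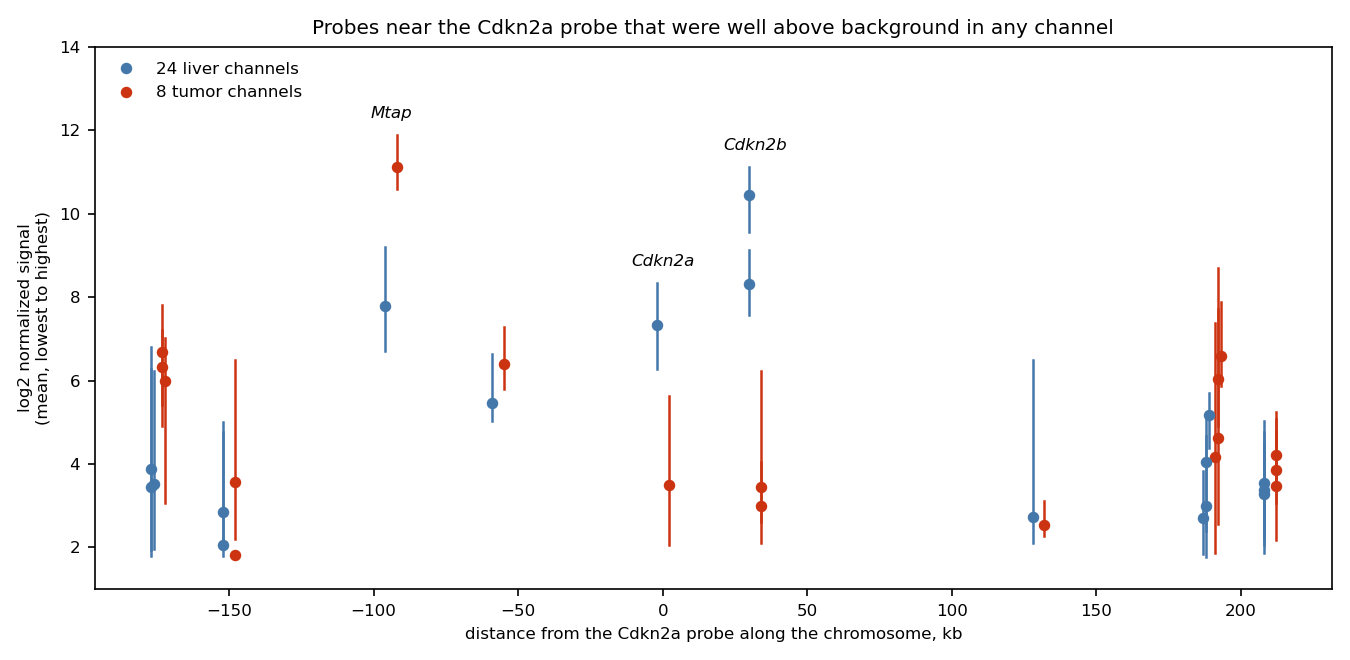
Mean log2 level (points) and range (lines) in the 24 liver and the 8 tumor channels for the 18 probes within 220 kb of the Cdkn2a probe that were well above background in any channel, against distance along chromosome 4 in kb. The tumor channels lie below the liver channels for Cdkn2a and both Cdkn2b probes, 32 kb away, and above them for Mtap at -94 kb (10.60 to 11.89 against 6.71 to 9.20).

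The neighbours of *Cdkn2a* on chromosome 4 were looked at after the values of *Cdkn2a* were seen, and they describe the locus only. *Cdkn2b*, which encodes the related inhibitor INK4B, lies 32 kb from the *Cdkn2a* probe. Its brighter probe ranged from 9.56 to 11.13 in the 24 liver channels and from 2.11 to 6.23 in the 8 tumor channels, 2 of them well above background, with a difference from Kupffer cells of -6.97 (SE 0.46, adjusted p = 3.65e-13). Its second probe ranged from 7.57 to 9.13 in the liver and from 2.61 to 4.06 in the tumors, with 0 of 8 tumor channels well above background (adjusted p = 1.93e-19 against Kupffer cells). On the normexp scale the level of the second probe in control Kupffer cells was at least 4.17-fold higher than in TM, and in TME Kupffer cells at least 3.76-fold higher than in TP. *Mtap*, which encodes an enzyme of methionine salvage, lies 94 kb on the other side. It ranged from 6.71 to 9.20 in the liver and from 10.60 to 11.89 in the tumors, well above background in 8 of 8 channels, with a difference of 3.97 (adjusted p = 5.08e-14). An unnamed probe at 57 kb on the *Mtap* side was also well above background in 8 of 8 tumor channels and 0.99 higher than in Kupffer cells. On the *Cdkn2b* side the next probes, of non-coding transcripts at 130 to 146 kb, were well above background in 0 tumor and at most 2 liver channels, and a probe at 191 kb was so in 8 of 8 tumor channels, 1.68 higher than in Kupffer cells. Within 220 kb, the probes whose tumor channels all lay below the liver channels were those of *Cdkn2a* and *Cdkn2b*. Low tumor values were also seen further out on the *Mtap* side. *Ifnb1* at -752 kb was well above background in 24 liver and 1 of 8 tumor channels (-9.87 against Kupffer cells). A non-coding probe at -283 kb was so in 16 liver and 0 tumor channels (-2.50). *Klhl9* at -556 kb, between them, was so in 8 of 8 tumor channels, 1.02 higher than in Kupffer cells. Copy number was not measured.

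The TME and control cells were the comparison the study was built on, and in it 0 of the 12 probes were called in any of the 3 cell types by limma. In endothelial cells 1.17% of all probes were called, in Ito cells 0.3% and in Kupffer cells 0.435%. At an unadjusted p under 0.05 there were 0, 3 and 1 of the 12 probes, beside 7.84, 10.1 and 7.46% of all probes, and that 1 was the second *Cdkn2a* probe, never well above background. The 3 in Ito cells were *Apc* (-0.78, unadjusted p = 0.0256, adjusted p = 0.422), *Pik3ca* (-0.54, unadjusted p = 0.0211, adjusted p = 0.403) and the second *Braf* probe (-0.88, unadjusted p = 0.0343). All were lower in the TME. Replicate 2 of the TME Ito cells held the lowest Ito value for *Apc* (4.60), *Pik3ca* (6.58) and *Braf* (8.31), and it is the sample with the high colon epithelial and low macrophage signals. Without it *Apc* was at -0.35 (adjusted p = 0.854), *Pik3ca* at -0.21 (adjusted p = 0.854) and the second *Braf* probe at -0.37 (adjusted p = 0.886).

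*Myc* shows how array 4 bears on this comparison. In Kupffer cells the TME minus control difference was -0.97, -0.89 and -0.77 on arrays 1 to 3 and 0.87 on array 4. In Ito cells it was -1.51, -0.02 and -1.10 on arrays 1 to 3 and 1.31 on array 4, while in endothelial cells it stayed between -0.22 and 0.21. Over all 4 arrays the Kupffer difference was -0.44 (adjusted p = 0.819). With array 4 of the Ito and Kupffer cells left out, a choice made after seeing the data, *Myc* was lower in TME Kupffer cells (-0.87, SE 0.24, adjusted p = 0.0464, with 3.93% of all probes called) and in TME Ito cells (-0.88, SE 0.24, adjusted p = 0.0289, with 7.91% called). *Apc* was then also lower in TME Ito cells (-1.29, SE 0.30, adjusted p = 0.00963), with differences of -1.07, -2.24 and -0.56 on arrays 1 to 3 and 0.77 on array 4. The value of -2.24 is that of TME Ito replicate 2. Without that sample as well, which leaves 2 TME Ito samples, *Apc* was at -0.86 (adjusted p = 0.0483) and *Myc* at -1.31 (adjusted p = 6.06e-05) in Ito cells, among 9.95% of all probes called, and *Myc* at -0.87 (adjusted p = 0.00196) in Kupffer cells, among 7.02%. The sample labels were kept for array 4, although its neutrophil signals ran against them, and whether its samples were exchanged was not tested. In endothelial cells the *Cdkn2a* level of the TME sample exceeded that of the control on all 4 arrays, by 0.71, 0.88, 1.22 and 0.67, with a mean of 0.87 with a 95% interval of -0.32 to 2.07 (adjusted p = 0.942 by limma). That interval rests on the spread shared by all 8 groups, tumors included. The SD of this probe was 0.45 in EC and 0.31 in ET. It was 1.74 in TM and 1.14 in TP, where only TM replicate 4 was well above background. Differences of the TME change between cell types, in which the shared effect of the dye cancels, were called with all samples for 0 of the 12 probes in each of 3 contrasts, with 0, 0 and 2 at an unadjusted p under 0.05 beside 4.58, 3.92 and 4.25% of all probes. Of all probes 0.117, 0.0862 and 0.00359% were called there.

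**Figure D4:**
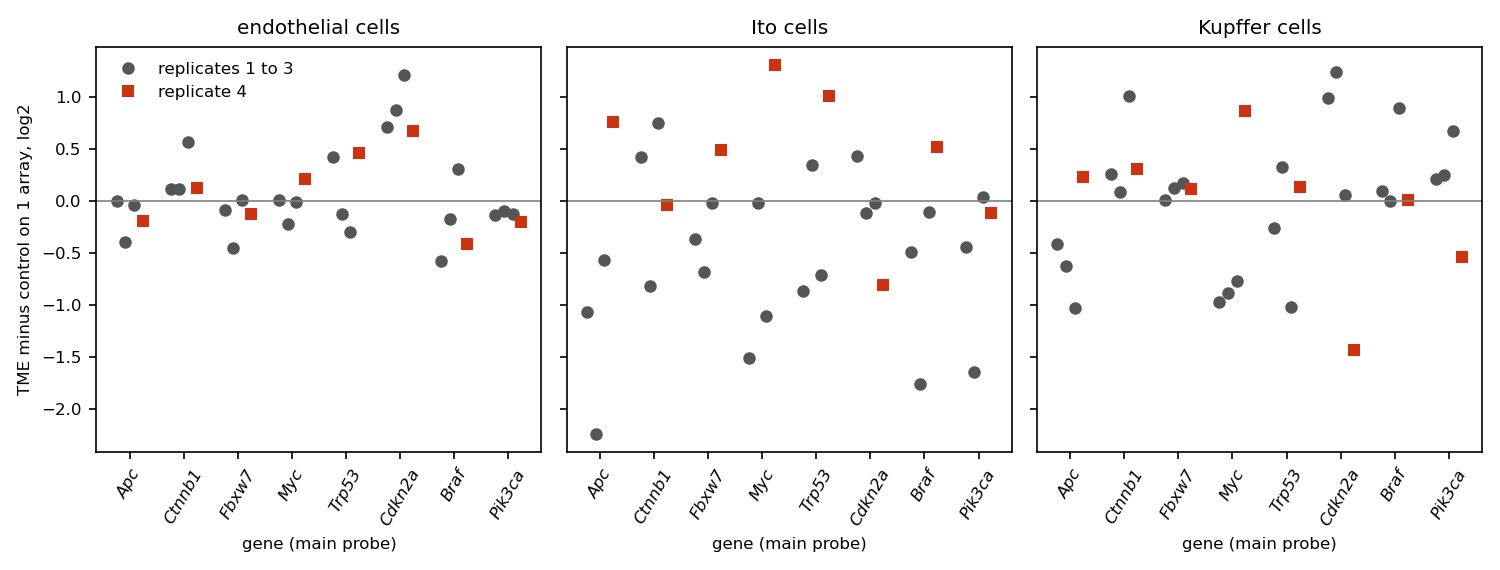
TME minus control log2 difference on each of the 4 arrays of endothelial, Ito and Kupffer cells for the brighter probes of the 8 genes, with array 4 as a square. For Myc, array 4 is at 1.31 in Ito and 0.87 in Kupffer cells while arrays 1 to 3 lie at or below -0.02.

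Between TP and TM, 0 of the 12 probes were called by limma and 2 had an unadjusted p under 0.05, among 2.91% and 16.2% of all probes. *Ctnnb1* was at 0.77 (SE 0.23, 95% interval 0.30 to 1.24, adjusted p = 0.0663), and its 4 TP channels lay above the 4 TM channels. With the array, which TP and TM shared, as a block it was called (adjusted p = 0.0479), as it was without TME Ito replicate 2 (adjusted p = 0.019). Without TM replicates 2 and 3 the difference was 0.38 (95% interval -0.15 to 0.91, adjusted p = 0.863). The second *Braf* probe was at -0.90 (SE 0.40, adjusted p = 0.249) and at -0.004 without TM replicates 2 and 3. Here TP carried Cy5 and TM Cy3 throughout, so the dye cannot be told apart from the site of the tumor. *Ctnnb1* was also higher in Cy5 than in Cy3 on all 4 endothelial and all 4 Kupffer arrays, by 0.12, 0.12, 0.57 and 0.13 and by 0.26, 0.09, 1.02 and 0.31, but on only 2 of the 4 Ito arrays (0.43, -0.81, 0.76 and -0.04).

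**Figure D5:**
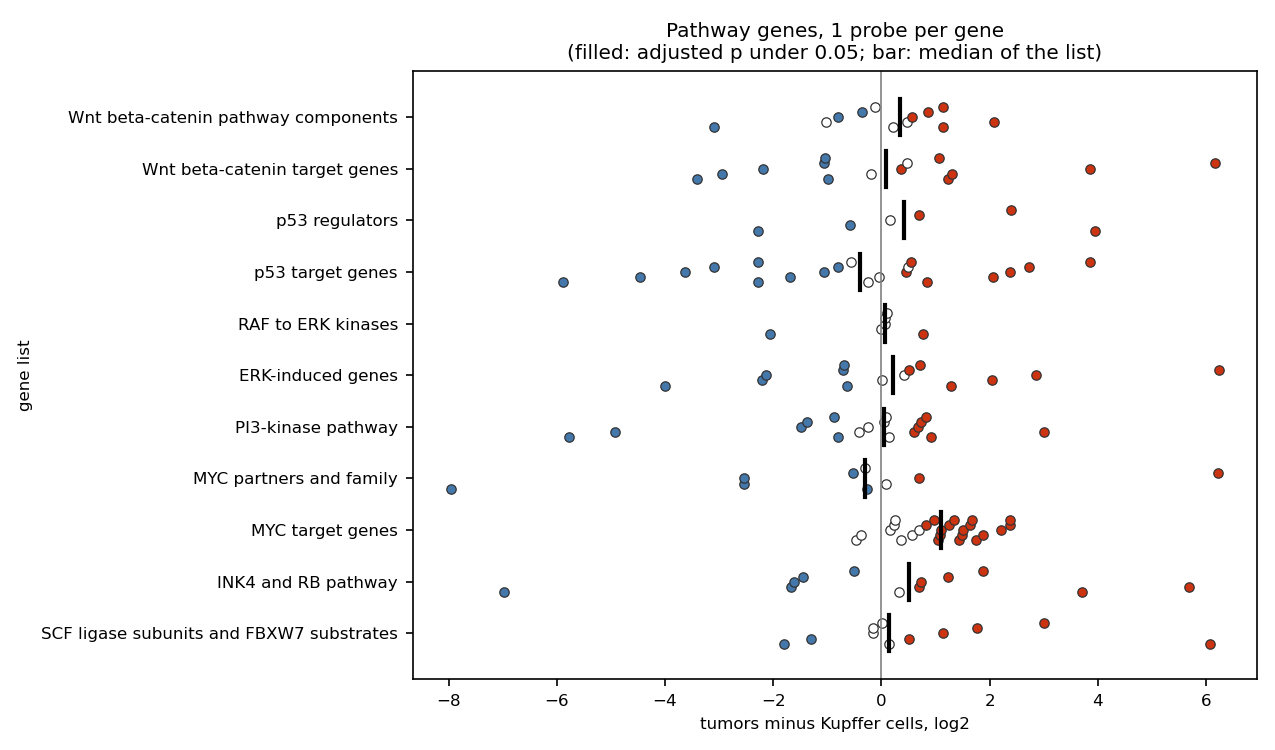
Log2 difference between tumors and Kupffer cells for each gene of the 11 pathway lists, as a point that is filled where the adjusted p was under 0.05, with a bar at the median of the list. Of the MYC target genes 17 of 25 were higher and 0 lower, and each of the other lists holds genes called in both directions.

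The genes around the drivers were described from lists of pathway members, 1 probe a gene, in the same fit. Their counts are read beside the 50.7% of all probes called against Kupffer cells and beside the median of all probes of 0.10. Of 12 components of the Wnt pathway, 5 were higher in the tumors and 3 lower, with a median of 0.34. *Bcl9*, a coactivator of β-catenin, was at -3.10, *Btrc*, which marks β-catenin for destruction, at 2.07, the Wnt coreceptor gene *Lrp6* at 1.14 and *Bcl9l* at 1.14. Of 14 Wnt target genes, 6 were higher and 6 lower, with a median of 0.09. *Sox9*, a transcription factor of intestinal crypts, was not well above background in Kupffer cells and at least 9.03-fold higher in TM than in control and 4.64-fold higher in TP than in TME Kupffer cells (adjusted p = 1.16e-12 for both tumor groups). *Lef1*, a partner of β-catenin, was well above background in 3 of 4 TM, 2 of 4 TP and 0 of 8 Kupffer channels (adjusted p = 6.99e-06 for both tumor groups). The same rule gave 3.08-fold in TM and 1.64-fold in TP. These are no firm bounds, since tumor channels not well above background entered as measured. The feedback inhibitor *Nkd1* was well above background in 0 of 8 tumor channels, and control Kupffer cells were at least 1.60-fold above TM (adjusted p = 7.82e-13 for both tumor groups). *Znrf3*, another feedback inhibitor, was at -2.94.

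Of 25 MYC target genes, most of them of ribosome synthesis, 17 were higher in the tumors than in Kupffer cells and 0 lower, with a median of 1.11, although *Myc* itself was lower there. *Hspe1* (2.38, SE 0.20) and *Hspd1* (2.21, SE 0.17), a pair of mitochondrial chaperones, *Wdr12* (2.37, SE 0.18), of ribosome assembly, and *Cdk4* (1.87, SE 0.12), a cyclin D kinase, differed most. Against endothelial cells 5 were higher and 3 lower, with a median of 0.11, where 27.8% of all probes were higher and 18.9% lower. Against Ito cells 7 were higher and 4 lower, with a median of -0.01, where 28.5% were higher and 20.2% lower. The summed signals of the 9 cycling genes were 457 to 3742 in the liver channels and 8883 to 104266 in the tumor channels, and their part was not tested. Of 9 partners and relatives of MYC, 2 were higher and 5 lower. *Mxd1*, an antagonist of MYC, was at -7.96 (SE 0.25), *Mxd3*, another member of that family, was not well above background in Kupffer cells and at least 5.47-fold higher in TM and 7.80-fold higher in TP (adjusted p = 8.39e-14), and *Max*, the partner of MYC, was at -2.55 (SE 0.11). *Mycn*, a MYC paralog, was well above background in 7 of 8 Kupffer and 0 of 8 tumor channels (adjusted p = 1.15e-06).

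Around p53, 3 of 6 regulators were higher and 2 lower. *Chek2*, a DNA damage kinase, was not well above background in Kupffer cells and at least 2.16-fold higher in TM (adjusted p = 6.16e-11 for both tumor groups). In TP, where 3 of 4 channels were well above background, the same rule gave 2.13-fold, which is no firm bound. The kinase gene *Atm* was at 2.39 (SE 0.17) and *Ppm1d*, a phosphatase that turns p53 signalling off, at 0.70. *Mdm2*, the ligase that degrades p53 and itself a p53 target, was at -2.27 (SE 0.26, adjusted p = 2.39e-08). Of 20 p53 target genes, 7 were higher and 9 lower than in Kupffer cells, with a median of -0.40. The apoptosis genes *Pmaip1* (-5.88) and *Fas* (-3.63) and the growth-arrest gene *Btg2* (-4.46) were lower, and *Zmat3* (3.85), an RNA-binding protein, was higher. Of the targets, 3 were higher and 11 lower than in endothelial cells, beside 27.8% and 18.9% of all probes, and 6 higher and 12 lower than in Ito cells, beside 28.5% and 20.2%.

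In the cell cycle list around INK4 and RB, 6 of 12 genes were higher and 5 lower, with a median of 0.51. Beside *Cdkn2b*, these included *Cdkn2c*, which encodes the related inhibitor INK4C, at 5.69 (SE 0.34), *E2f1*, an activator of S phase genes, at 3.71 (SE 0.29), and *Cdk4*. The INK4 family thus differed among its members, with *Cdkn2a* and *Cdkn2b* lower and *Cdkn2c* and *Cdkn2d* (0.72, SE 0.24, adjusted p = 0.0137) higher. Of 11 genes of the SCF ligase and substrates of FBXW7, 5 were higher and 2 lower, with a median of 0.14. *Ccne1*, which encodes the FBXW7 substrate cyclin E1, was at 3.00 (SE 0.26) and *Skp2*, another substrate receptor, at 1.77 (SE 0.26). The substrate *Klf5* was not well above background in Kupffer cells and at least 13.3-fold higher in TM and 9.37-fold higher in TP (adjusted p = 5.24e-13), and the substrate *Mcl1* was at -1.81 (SE 0.18).

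Of 6 kinases between RAF and ERK, 1 was higher and 1 lower. *Map2k1*, which encodes MEK1, was at -2.07 (SE 0.12) and *Mapk3*, which encodes ERK1, at 0.77 (SE 0.11). Of 14 genes that ERK induces, 6 were higher and 6 lower, with a median of 0.22. The ETS factor *Etv4* was at 6.23 (SE 0.24) and the feedback gene *Spry4* at 2.86 (SE 0.39), while the phosphatase gene *Dusp5* was at -4.003 (SE 0.35) and *Spred1* at -2.20 (SE 0.15). Of 17 genes of the PI3-kinase pathway, 6 were higher and 6 lower, with a median of 0.05. The catalytic subunits of leukocytes, *Pik3cd* (-5.77, SE 0.43) and *Pik3cg* (-4.93, SE 0.34, at least 4.13-fold higher in TME Kupffer cells than in TP, where it was at background), and the regulatory subunit *Pik3r1* (-1.48, SE 0.15) were lower, and the regulatory subunit *Pik3r2* (3.01, SE 0.22) was higher. *Pik3ca* stood at 0.33 beside them.

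Few of the 143 genes of the pathway lists were called between TME and control cells or between TP and TM. Of all probes, 2.91% were called between TP and TM. That share was 1.17% for ET against EC, 0.3% for IT against IC and 0.435% for KT against KC. The low counts are therefore not read as a result about the pathway genes. Between TME and control endothelial cells the Wnt target *Sp5* was higher (2.22, adjusted p = 0.00431, but 0.0869 without replicate 3 of each group), and in Ito and Kupffer cells 0 list genes were called by limma. The size of the *Sp5* difference depended on the background correction. It was 0.46 (adjusted p = 0.0987) with normexp and quantile normalization and 0.55 (adjusted p = 0.0341) with loess and Aquantile. By the methods' t-test *Sp5* was not called (adjusted p = 0.104). Between TP and TM the p53 targets *Pmaip1* (3.76, adjusted p = 0.0238) and *Gdf15* (3.49, adjusted p = 0.0306) were higher in TP and *Mtor* was lower (-0.89, adjusted p = 0.02), with the dye not separable from the group. Without TM replicates 2 and 3 these were at 0.93 (adjusted p = 0.859), 1.29 (adjusted p = 0.81) and -0.52 (adjusted p = 0.496). *Mtor* was also not called without replicate 3 (adjusted p = 0.236) or 4 (adjusted p = 0.071) of each group. *Pmaip1* and *Gdf15* were not called without replicate 2 (0.227 and 0.342) or with normexp and quantile normalization (0.0707 and 0.0551). With only the groups compared, *Pmaip1*, *Gdf15* and *Mtor* were all not called (0.457, 0.454 and 0.382), nor by the methods' t-test (0.41, 0.409 and 0.313).

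The probes whose levels most resembled those of a driver over the 32 channels were found by Pearson's r among named probes well above background in at least 1 group. The channels share arrays and fall into 4 tissues, so these r values are descriptions. *Myc* was most like *Urb1* (r = 0.97), *Bcl2l13* (0.96) and *Rbm33* (0.95), and *Cdkn2a* most like *Raet1e*, *Dhdh* and *Fli1* (0.96 each). *Braf* was most like *A230046K03Rik* (0.95), *Arid4b* (0.94) and *Tab3* (0.93), *Fbxw7* most like *Pcgf5* (0.94), *Cmtm6* (0.93) and *Agfg1* (0.92), and *Trp53* most like *Aven* (0.93), *Ddx56* (0.91) and *Eif3b* (0.90). The closest probes of *Ctnnb1* (*Cfhr2*, 0.90), *Pik3ca* (*Capn7*, 0.86) and *Apc* (*Bptf*, 0.85) were less alike. Between the drivers themselves, the highest r over the 32 channels was that of *Fbxw7* with *Cdkn2a* and with *Braf* (0.70 each). Within the 24 liver channels alone these were -0.002 and 0.29, and there the highest was *Ctnnb1* with *Braf* (0.78).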

How the data were processed

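The mRNA of 32 samples was read on 16 two-colour Agilent arrays. The sample labels gave the group, dye and number of each sample. The authors deposited the spot intensities of Agilent Feature Extraction 10.7.3.1, among them a processed signal (background-corrected and balanced between dyes), with gene names and mm9 coordinates of the array design, and a table of normalized intensities per probe on the linear scale, which was used as an alternative (r with the values used here of at least 0.9999 in each channel). All 8 symbols were in the RefSeq table, which served for names only. Some genes of these pathways are not reported here.

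After control and outlier spots were removed, processed signals were read for each sample from its own channel, log2 transformed and averaged over the spots of each probe. Quantile normalization over the 32 channels followed, as the methods state. The 8 groups were fitted together with limma 3.58.1 in R 4.3.3 (lmFit and eBayes, with version 1.17.8 of data.table) over 55681 probes, with Benjamini-Hochberg adjustment over all of them, and calls were made at an adjusted p under 0.05 whatever the fold. All tests were two-sided. Single probes were also tested by exact permutation of 8 against 8 channels. A probe counted as well above background where the scanner software marked it so. No spot was saturated. The steps were tested on simulated data. Figures were drawn with matplotlib 3.10.9 in Python 3.11.15.

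The members and lists were chosen with earlier results of these data known. For a gene with several probes the one with the highest mean level was described in full. From each pathway list, at most the 4 called genes with the largest difference between tumors and Kupffer cells were named, together with the list genes called between TME and control or between TP and TM. *Cdkn2d* and the neighbours of *Cdkn2a* were chosen after their values were seen. The alternatives were normexp background correction (offset 50) with quantile or with loess and Aquantile normalization, 75th percentile scaling, the deposited values, dim probes left out, a block for the array, fits of only the compared groups, the methods' t-test, a threshold of an adjusted p under 0.001 and 4-fold, the probe of highest variance and each replicate left out. Added after seeing the data were fits without array 4 of Ito and Kupffer cells, without TM replicates 2 and 3, without TME Ito replicate 2, and without the first and the last of these.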

Additional observations from a re-analysis of the deposited data

Results flagged for a closer look

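In 4 of the 64 sets of 4 samples checked, a single sample lay far from the other 3 by Dixon's criterion, and chance alone does so in about 1 of 20 sets. *Fbxw7* stood at 8.87 in TP replicate 4, with the other TP samples at 8.19 to 8.24. *Myc* stood at 11.10 in control Ito replicate 4, with the others at 12.37 to 12.44, and at 11.15 in TME Kupffer replicate 4, with the others at 10.18 to 10.32. *Braf* stood at 9.57 in TME Kupffer replicate 2, with the others at 9.36 to 9.38.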

How the results depend on the processing

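Counts below are of called member probes, and the share of all probes called moved with the setting as well. Where that share is not given, a count is not read as a result about the members. At an adjusted p under 0.001 and 4-fold, 1 probe (*Cdkn2a*) remained in tumors against Kupffer, endothelial and Ito cells, in TM against KC and in TP against KT, and 0 in endothelial against Ito cells. In the same order 15.4, 11.1, 13.1, 14.2, 15.9 and 1.51% of all probes remained. The methods' t-test gave 2 in TM against KC and 3 in endothelial against Ito cells, and loess with Aquantile 8 in tumors against endothelial cells and 3 in endothelial against Ito cells. The latter comparison gave 3 with only the groups compared and 2 with normexp and quantile normalization, 75th percentile scaling, dim probes left out or without TM replicates 2 and 3, and 0 without array 4 of Ito and Kupffer cells. Of all probes, 19.9% were called there without TM replicates 2 and 3 and 17.3% without array 4 of Ito and Kupffer cells. Without those arrays IT against IC gave 2 and KT against KC 1, among 7.91% and 3.93% of all probes. Without TME Ito replicate 2, TP against TM gave 1 and endothelial against Ito cells 3, among 3.52% and 21.7% of all probes. Without both, IT against IC gave 2, KT against KC 1, TP against TM 1, endothelial against Ito cells 4, and the TME change differed for 1 (*Myc*) between endothelial and Ito and for 1 (*Myc*) between endothelial and Kupffer cells. Shares of all probes called there were 9.95% (IT against IC), 7.02% (KT against KC), 3.6% (TP against TM) and 21.9% (endothelial against Ito). With the array as a replicate block (correlation 0.08) TP against TM gave 1 (*Ctnnb1*, limma adjusted p = 0.0479) instead of 0. Correlations of same-numbered deviations ran from -0.65 to 0.40, so the numbers are not shown to pair the samples.

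Leaving out each replicate gave 5 to 8 probes in tumors against Kupffer cells, 3 to 4 in TM against KC, 5 to 6 in TP against KT, 4 to 5 against endothelial and 6 to 7 against Ito cells, 0 to 2 in IT against IC (2 without replicate 4), 0 in KT against KC, and 0 (without replicate 1, 3 or 4) to 3 (without replicate 2) in endothelial against Ito cells. Of the 55681 probes, 24774 to 26805 were called against Kupffer cells in these fits, beside 28219 with all samples. *Apc* changed sign near 0: tumors against Kupffer cells 0.00667 in the deposited table and -0.0928 to 0.0644 over the replicates left out, TM against KC -0.258 to 0.0113, and TP against KT -0.11 under 75th percentile scaling and -0.11 to 0.12 over the replicates. The second *Braf* probe in TM against KC was at 0.0136 with normexp and quantile normalization and at -0.48 to 0.23 over the replicates. Scaling to the 75th percentile moved the median of all probes in tumors against Kupffer cells by 0.44, to 0.54, and the share of called probes that were higher from 59.1 to 71.6%. Relative to that median *Trp53* was at 0.15, *Myc* at -1.16 and *Pik3ca* at -0.23, the last turned in sign. *Pik3ca* passed the test against Kupffer cells with normexp (adjusted p = 0.0416), loess (0.0194), only the groups compared (0.045), the methods' t-test (0.0466) and without replicate 2 (0.0167), and *Ctnnb1* with normexp and quantile normalization (0.0493) and dim probes left out (0.0464). The probe of highest variance for *Apc* is one never above background.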
